A study of Mus musculus with 6 samples.

Results

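The genes described here are *Nampt*, *Nmnat1*, *Nmnat3*, *Nnmt*, *Nadk*, *Sirt1*, *Sirt3*, *Sirt5*, *Parp1* and *Cd38*, which make, convert, dispose of or consume nicotinamide adenine dinucleotide (NAD). They were chosen by symbol from the deposited expression table, and all 10 were found among its 19445 loci. Inguinal subcutaneous white fat (iWAT) was profiled by RNA-Seq in untreated mice aged 12 weeks, 3 carrying an *Hlx* transgene (transgenic) and 3 wild-type littermates. The transgene placed the cDNA of the homeobox factor Hlx behind the promoter of *aP2* (*Fabp4*), which is active in adipocytes of white and brown fat, and both genotypes keep the endogenous *Hlx* gene. Founders came from embryos of C57BL/6 and SJL hybrid mice and were backcrossed to C57BL/6, and the labels do not name the line that was sequenced. Each library came from 1 mouse, so the error given is the spread between mice. Levels are in FPKM, the number of reads relative to transcript length and to all mapped reads, and mice are listed in the order of their replicate numbers.

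The labels give all 6 mice as male, whereas *Xist*, the RNA of the inactive X chromosome, was at 20.2 to 33.6 FPKM in all 6 libraries and the 28 Y-linked loci were listed at 0. No result below compares sexes. *Hlx* itself was at 79.6 to 110 FPKM in the transgenic mice and at 6.88 to 8.14 FPKM in wild-type mice, and these ranges do not overlap. The summed adipocyte markers were at 28199 to 33447 FPKM in transgenic and 23904 to 29610 FPKM in wild-type mice. Most of that sum is *Fabp4*, whose promoter drives the transgene, and the other 5 markers summed to 3638 to 4152 FPKM in transgenic and 4607 to 6070 FPKM in wild-type mice, without overlap. *Adipoq*, among these 5, was lower (1363 ± 89.0 against 2481 ± 415 FPKM, SD, n = 3) and the other 5 of 6 were not called. The values of *Plin1*, *Lipe*, *Cidec* and *Lep* each overlapped between genotypes. Of the brown adipocyte markers 5 of 6 were higher, and their sum was 3063 to 4312 FPKM against 187 to 317 FPKM. The sixth, *Dio2*, was at 1.69 ± 1.39 and 2.38 ± 1.36 FPKM (SD, n = 3) and was not called. Among other cell types, 4 of 8 macrophage, 1 of 4 B and plasma cell and 1 of 7 fibroblast markers were called lower, beside 7.03% of all loci tested. At an unadjusted limma p under 0.05, 8 of 8 macrophage, 3 of 4 B and plasma cell and 2 of 7 fibroblast markers were lower. Of all loci tested, 11.6% were called higher. Of 6 endothelial markers 2 were higher and 1 was lower, the single red blood cell marker tested was higher, and none of 6 T cell, 4 neutrophil, 6 skeletal muscle, 5 epithelial or 5 cycling cell markers was called by limma (of these 26, 3 higher and 1 lower had an unadjusted p under 0.05). Skeletal muscle markers summed to 490 FPKM in transgenic mouse 2, against 5.39 to 95.7 FPKM in the other 5 mice.

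NAD carries electrons between the reactions of fuel oxidation and is also used up as a substrate. Most cells rebuild it from nicotinamide: Nampt joins nicotinamide to a ribose phosphate to give nicotinamide mononucleotide, and the Nmnat enzymes turn that into NAD. Nadk adds a phosphate to give NADP, the source of NADPH for fatty acid synthesis and antioxidant defence. Sirtuins use NAD to remove acyl groups from proteins, Parp1 uses it to build chains of ADP-ribose on proteins at sites of DNA damage, and Cd38 cleaves it. Each of these consumers releases nicotinamide, which can be recycled by Nampt or methylated by Nnmt and excreted. In adipose tissue, Nnmt and Nampt are abundant, and sirtuins of mitochondria act on enzymes of fat oxidation.

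The promoters of these genes were read from RefSeq (GRCm38.p6) as the 250 bases before each annotated start. A sequence was found for 9 of the 10 genes, in 12 windows. Of the windows, 10 of 12 lie above the median of 6 CpG over all mouse promoters, and the windows of *Nmnat1* overlap each other. They were searched on both strands for CACGTG, the E-box that basic helix-loop-helix factors such as Myc and Clock recognise, AAGGTCA, the extended half-site of estrogen-related receptors, and TAATTA, a core that many homeodomain proteins recognise. Of all 32851 promoter windows, 6.02% hold CACGTG, 4.08% hold AAGGTCA and 4.84% hold TAATTA. Among the windows of the 10 genes, *Sirt5* holds 1 AAGGTCA, whose first base lies 165 bases before the start, *Sirt1* holds 2 CACGTG, *Parp1* and 1 window of *Nadk* hold 1 CACGTG each, and none holds TAATTA. The Hlx-binding motif sequences that the paper lists at other promoters do not hold TAATTA either, so its absence here does not bear on sites for Hlx. The windows of *Nampt*, *Nmnat1* and *Sirt3*, which like *Sirt5* were higher in the transgenic mice, hold none of the searched motifs. Below, *Sirt5* is shown as a gene that was higher in the transgenic mice, *Sirt1* as a sirtuin that was not called and *Nmnat3* as the member with the largest fall. They are written 5′ to 3′ on the strand of the gene, without bases that are exonic in GENCODE, and capitals mark a searched motif. The stretch for *Sirt5* is chr13:43365285-43365495 on the plus strand, that for *Sirt1* is chr10:63339051-63339285 on the minus strand and that for *Nmnat3* is chr9:98296320-98296569 on the plus strand.
Sirt5: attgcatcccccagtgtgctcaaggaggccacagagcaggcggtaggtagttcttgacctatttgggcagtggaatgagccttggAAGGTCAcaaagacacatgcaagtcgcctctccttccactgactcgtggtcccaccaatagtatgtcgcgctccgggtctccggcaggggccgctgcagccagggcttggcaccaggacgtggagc
Sirt1: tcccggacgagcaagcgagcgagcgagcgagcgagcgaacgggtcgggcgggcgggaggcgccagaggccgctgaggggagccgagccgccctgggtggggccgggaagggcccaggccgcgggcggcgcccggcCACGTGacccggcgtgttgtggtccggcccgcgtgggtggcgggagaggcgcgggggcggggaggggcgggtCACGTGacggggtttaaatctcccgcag
Nmnat3: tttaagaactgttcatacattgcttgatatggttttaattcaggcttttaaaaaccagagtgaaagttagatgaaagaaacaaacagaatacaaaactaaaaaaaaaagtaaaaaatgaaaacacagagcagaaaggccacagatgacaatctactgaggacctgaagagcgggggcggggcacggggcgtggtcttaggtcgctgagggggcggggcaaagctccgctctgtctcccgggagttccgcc
A match of letters describes the sequence and does not show that a factor was bound there, and binding was not measured in these libraries.

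In the comparison of transgenic with wild-type iWAT, 4 of the 10 genes were higher (*Nampt*, *Nmnat1*, *Sirt3* and *Sirt5*), 2 were lower (*Nmnat3* and *Nnmt*) and 4 were not called (*Nadk*, *Sirt1*, *Parp1* and *Cd38*). A gene was called when its adjusted p was under 0.05 in limma's moderated test on log2(FPKM + 1), with Benjamini-Hochberg adjustment over the 11692 loci whose mean exceeded 1 FPKM in at least 1 genotype. All 10 genes passed that filter. Of all loci tested, 11.6% were called higher and 7.03% lower. The 6 genes called were also those whose 3 transgenic and 3 wild-type values do not overlap, a separation seen at 42.9% of the loci tested. The median difference of the 10 genes was 0.0043 on the log2 scale, beside −0.01 over all loci tested. With 3 mice against 3, a two-sided exact permutation test cannot go below p = 0.1, and each of the 6 called genes gave that value.

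**Figure D1:**
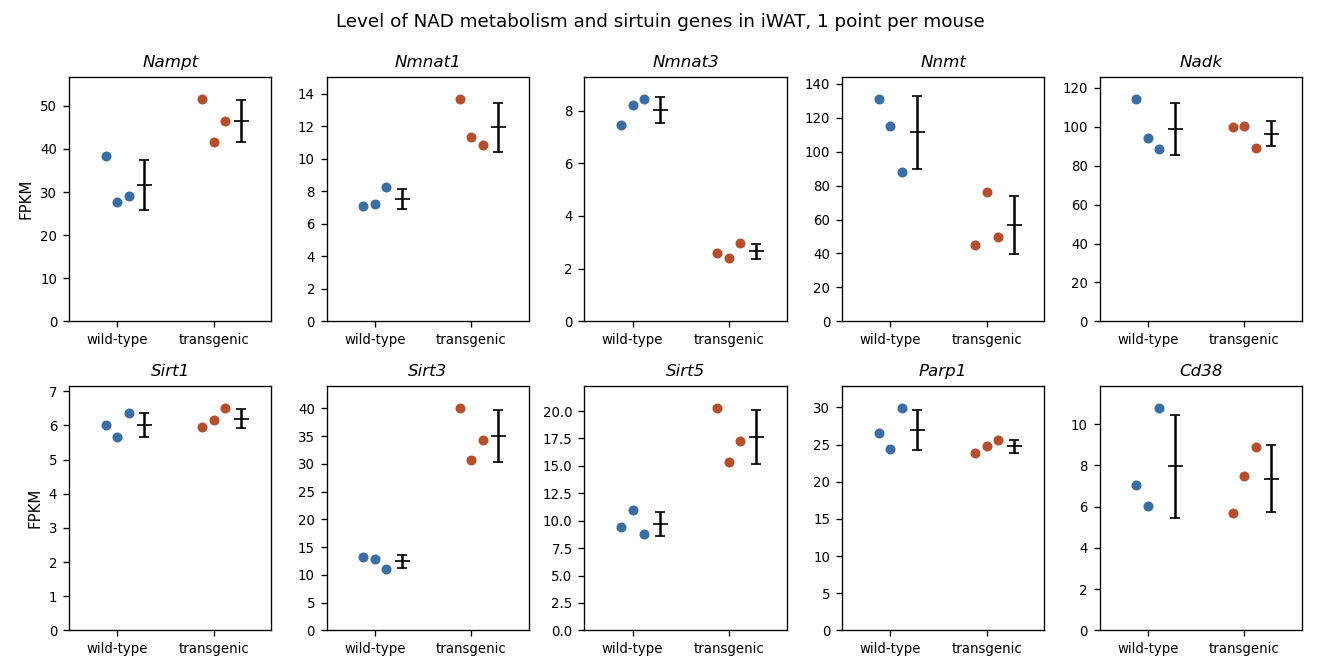
Level of each of the 10 genes in FPKM, with 1 point per mouse, for wild-type (blue) and transgenic (red) iWAT, and the mean with its SD (n = 3) to the right of the points. The genotypes are separated at *Nampt*, *Nmnat1*, *Nmnat3*, *Nnmt*, *Sirt3* and *Sirt5* and overlap at *Nadk*, *Sirt1*, *Parp1* and *Cd38*, with *Nmnat3* at 2.41 to 2.96 FPKM in transgenic and 7.46 to 8.42 FPKM in wild-type mice.

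The salvage genes moved in both directions. *Nampt* (chr12:32820335-32853369), the rate-limiting enzyme of nicotinamide salvage, was at 51.5, 41.6 and 46.4 FPKM in the transgenic mice and at 38.4, 27.7 and 29.1 FPKM in wild-type mice. Every transgenic mouse was above every wild-type mouse, although wild-type mouse 1 came close to transgenic mouse 2. The means were 46.5 ± 4.96 and 31.7 ± 5.80 FPKM (SD, n = 3), a ratio of 1.46. The difference was 0.55 ± 0.14 (SE) on the log2(FPKM + 1) scale, with a limma adjusted p = 0.0386. That call was lost when transgenic mouse 1 or 3 or wild-type mouse 2 or 3 was left out, with adjusted p between 0.103 and 0.121 in limma, and without the expression filter (limma adjusted p = 0.120). In bulk tissue, fewer cells of a type and less RNA per cell cannot be told apart, here and at every gene below.

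The Nmnat enzymes catalyse the step after Nampt. *Nmnat1* (chr4:149468374-149500944), the nuclear form, was at 13.7, 11.3 and 10.8 FPKM in transgenic and 7.10, 7.24 and 8.26 FPKM in wild-type mice. All 3 transgenic mice were above all 3 wild-type mice, and transgenic mouse 1 was the highest, as it also was for *Nampt*, *Sirt3* and *Sirt5*. The means of 11.9 ± 1.51 and 7.53 ± 0.634 FPKM (SD, n = 3) gave a ratio of 1.59, and the log2 difference was 0.60 ± 0.11 (SE; limma adjusted p = 0.0113). *Lzic*, whose table row has the same interval as *Nmnat1*, was also higher (17.2 ± 1.02 against 11.8 ± 0.473 FPKM, SD, n = 3; limma adjusted p = 0.00621). In GENCODE the exons of *Nmnat1* overlap those of no other gene, but the annotation behind the FPKM is not known. Whether reads were shared between *Nmnat1* and *Lzic* was not tested.

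*Nmnat3* (chr9:98296583-98411428), the form described in mitochondria, showed the opposite direction. It was at 2.59, 2.41 and 2.96 FPKM in transgenic and 7.46, 8.20 and 8.42 FPKM in wild-type mice. The values of each genotype lay close together, and the gap between genotypes was wider than the spread within either. Its mean fell from 8.03 ± 0.504 to 2.65 ± 0.279 FPKM (SD, n = 3), to 33.0% of wild-type, with a log2 difference of −1.31 ± 0.09 (SE; 95% confidence interval −1.53 to −1.08; limma adjusted p = 0.000581). This was the lowest adjusted p of the 10 genes, and the fall ranked 79 of 11692 loci by size. *Nmnat2*, the third enzyme of the family, which is best known in neurons, was at 0.169 to 0.360 FPKM in the 6 mice, below the filter, and was not tested.

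As *Nmnat1* rose and *Nmnat3* fell, their ratio within a mouse was also computed, 1 of 3 ratios that were chosen after the values were seen. These ratios restate the values of the single genes and are given as a description, with no test. The ratio of *Nmnat1* to *Nmnat3* was 5.28, 4.70 and 3.67 in transgenic mice 1 to 3 and 0.951, 0.883 and 0.980 in wild-type mice. Both genes are measured per length, so their levels can be set side by side: they were close to equal in wild-type iWAT, whereas *Nmnat1* was the more abundant in every transgenic mouse. The mean ratio was 4.55 ± 0.818 against 0.938 ± 0.0499 (SD, n = 3).

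*Nadk* (chr4:155562392-155591001), the cytosolic NAD kinase, was one of the most abundant of the 10 genes and was not called. It was at 99.7, 100.5 and 89.3 FPKM in transgenic and 114, 94.3 and 88.7 FPKM in wild-type mice, and the genotypes overlap. The log2 difference was −0.03 with a 95% confidence interval of −0.30 to 0.24 (limma adjusted p = 0.869), so a change of either sign within those bounds is not excluded. The sign of this difference turned when transgenic mouse 3 (0.02) or wild-type mouse 1 (0.07) was left out.

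*Nnmt* (chr9:48588543-48605318) methylates nicotinamide with S-adenosylmethionine as the donor and so takes it out of salvage. It was at 44.9, 76.5 and 49.4 FPKM in transgenic and 131, 115 and 88.2 FPKM in wild-type mice. Every transgenic mouse was below every wild-type mouse, with transgenic mouse 2 and wild-type mouse 3 the closest to each other. The mean fell from 112 ± 21.6 to 56.9 ± 17.1 FPKM (SD, n = 3), to 51.1% of wild-type, and the log2 difference was −0.98 ± 0.23 (SE; limma adjusted p = 0.0271). The call was lost in limma when transgenic mouse 1 or 3 or wild-type mouse 1 or 2 was left out (adjusted p between 0.0747 and 0.0868) and without the expression filter (adjusted p = 0.110). The tissue holds stromal and immune cells beside adipocytes, and some of their markers moved with the genotype. Macrophage markers summed to 422, 627 and 435 FPKM in transgenic and 773, 622 and 902 FPKM in wild-type mice, with 4 of 8 called lower. Fibroblast and progenitor markers summed to 1211, 1589 and 1307 FPKM and to 2137, 1801 and 1908 FPKM, with *Dpt* the 1 of 7 that was called lower. Adipocyte markers other than *Fabp4* summed to 4083, 4152 and 3638 FPKM and to 6070, 4996.5 and 4607 FPKM, and of these only *Adipoq* was called lower. Transgenic mouse 2 had the highest sum of its genotype in each of these lists, as it had for *Nnmt*. Wild-type mouse 3 was the lowest of its genotype for *Nnmt* and for these adipocyte markers, and the highest for macrophage markers. The part of any of these cell types in the level of *Nnmt* was not tested.

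The level of *Nampt* relative to *Nnmt*, the enzymes that recycle and dispose of nicotinamide, was 1.15, 0.544 and 0.939 in transgenic mice 1 to 3 and 0.293, 0.240 and 0.330 in wild-type mice. *Nnmt* was the more abundant of the pair in every wild-type mouse and in transgenic mice 2 and 3, and *Nampt* in transgenic mouse 1. The mean ratio was 0.877 ± 0.306 against 0.288 ± 0.0451 (SD, n = 3). Of the other nicotinamide disposal genes, *Aox1* and *Aox3*, the aldehyde oxidases that act on methylated nicotinamide, neither was called.

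Nnmt draws on the methyl groups of the methionine cycle, which also feeds polyamine synthesis, and 18 genes of these pathways were followed. Of the 14 tested, 2 were higher and 0 lower, with a median log2 difference of 0.06. The share higher, 14.3%, is near the 11.6% of all loci tested and is no result about the list, and 7.03% of all loci were lower. At an unadjusted limma p under 0.05, 3 were higher (*Ahcyl1*, *Ahcyl2* and *Gnmt*) and 1, *Smox*, a spermine oxidase, was lower. *Gnmt* was at 1.14 ± 0.201 and 0.704 ± 0.0530 FPKM (SD, n = 3) and was not called (limma adjusted p = 0.113). *Ahcyl1* was at 207, 149 and 193 FPKM in transgenic and 52.7, 47.4 and 46.4 FPKM in wild-type mice, a log2 difference of 1.87 ± 0.13 (SE; limma adjusted p = 0.000581). *Ahcyl2* differed by 0.93 ± 0.12 on the log2 scale (58.1 ± 7.72 against 29.9 ± 2.84 FPKM, SD, n = 3; limma adjusted p = 0.00371). Both encode relatives of adenosylhomocysteine hydrolase that are known mainly as regulators of ion channels and transporters rather than as enzymes of the cycle. *Ahcy*, the hydrolase itself, was at 2.49 ± 0.524 and 2.13 ± 0.277 FPKM (SD, n = 3) and was not called. The 7 polyamine genes tested ranged from −0.35 to 0.14 on the log2 scale and none was called.

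Of the sirtuins among the 10 genes, both that act in mitochondria were higher and *Sirt1* was not called. *Sirt3* (chr7:140852186-140882309), the main deacetylase of mitochondrial proteins, was at 40.0, 30.7 and 34.4 FPKM in transgenic and 13.2, 12.9 and 11.1 FPKM in wild-type mice. The transgenic mice lay far above the wild-type mice, and the gap between them was wider than the spread within either genotype. The means of 35.0 ± 4.66 and 12.4 ± 1.13 FPKM (SD, n = 3) gave a ratio of 2.82, and the log2 difference was 1.42 ± 0.12 (SE; 95% confidence interval 1.15 to 1.70; limma adjusted p = 0.00077). It was the largest rise of the 10 genes, ranked 161 of 11692 loci, and the call was kept in all 16 alternative settings.

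Because the protocol named does not mark strand, reads of genes that overlap *Sirt3* could be assigned to it. In GENCODE, *Sirt3* shares 342 of its 5973 exonic bases with *Psmd13* and 418 with *Ric8a*, both on the opposite strand. *Psmd13*, a proteasome subunit transcribed away from *Sirt3* across a common start region, was at 53.9 ± 5.53 and 53.2 ± 5.03 FPKM (SD, n = 3; log2 difference 0.02, limma adjusted p = 0.910). *Ric8a*, listed as *Ric8*, was at 18.5 ± 0.983 and 19.6 ± 0.839 FPKM (SD, n = 3; log2 difference −0.08, limma adjusted p = 0.452). The rows of *Ric8* and *Bet1l* have the same interval as that of *Sirt3*. *Bet1l* was at 21.2 ± 2.66 and 17.4 ± 1.94 FPKM (SD, n = 3; log2 difference 0.27, limma adjusted p = 0.156). None of these neighbours was called, and the part of their reads in the level of *Sirt3* was not tested.

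*Sirt5* (chr13:43365464-43395308), which removes succinyl, malonyl and glutaryl groups from mitochondrial proteins, was at 20.2, 15.3 and 17.3 FPKM in transgenic and 9.44, 10.9 and 8.76 FPKM in wild-type mice. The genotypes do not overlap, and transgenic mouse 1 was again the highest. The means were 17.6 ± 2.48 and 9.72 ± 1.12 FPKM (SD, n = 3), a ratio of 1.81, with a log2 difference of 0.79 ± 0.12 (SE; limma adjusted p = 0.00699). This call too was kept in all 16 alternative settings. Brown adipocyte markers other than *Dio2* moved with both sirtuins. *Ucp1*, the uncoupling protein of brown fat, was at 541 to 634 FPKM in transgenic and 17.5 to 57.8 FPKM in wild-type mice, and the part of such cells in the levels of *Sirt3* and *Sirt5* was not tested.

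*Sirt1* (chr10:63319005-63339035), the nuclear deacetylase that acts on transcriptional regulators such as the coactivator encoded by *Ppargc1a*, was at 5.94, 6.15 and 6.50 FPKM in transgenic and 5.999, 5.66 and 6.36 FPKM in wild-type mice. The genotypes overlap, and all 6 values lay close together. The log2 difference was 0.04 with a 95% confidence interval of −0.15 to 0.23 (limma adjusted p = 0.751). The ratio of *Sirt3* to *Sirt1* within a mouse was 6.73, 4.99 and 5.29 in transgenic and 2.204, 2.27 and 1.75 in wild-type mice. Its mean was 5.67 ± 0.929 against 2.08 ± 0.285 (SD, n = 3).

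Outside the 10 genes, 3 further sirtuins had a locus of their own and none was called. *Sirt2*, largely cytosolic, was at 63.9 ± 3.04 and 58.2 ± 3.14 FPKM (SD, n = 3), the highest level of the family in both genotypes. *Sirt4*, the third mitochondrial sirtuin, was at 9.15 ± 1.29 and 7.95 ± 0.570 FPKM (SD, n = 3) with a log2 difference of 0.18 (limma adjusted p = 0.288). *Sirt6*, a chromatin enzyme, was at 8.92 ± 1.25 and 8.31 ± 0.977 FPKM (SD, n = 3) with a log2 difference of 0.09 (limma adjusted p = 0.642). *Sirt7* is listed in 1 row together with *Mafg*, and its own level was not analysed here.

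**Figure D2:**
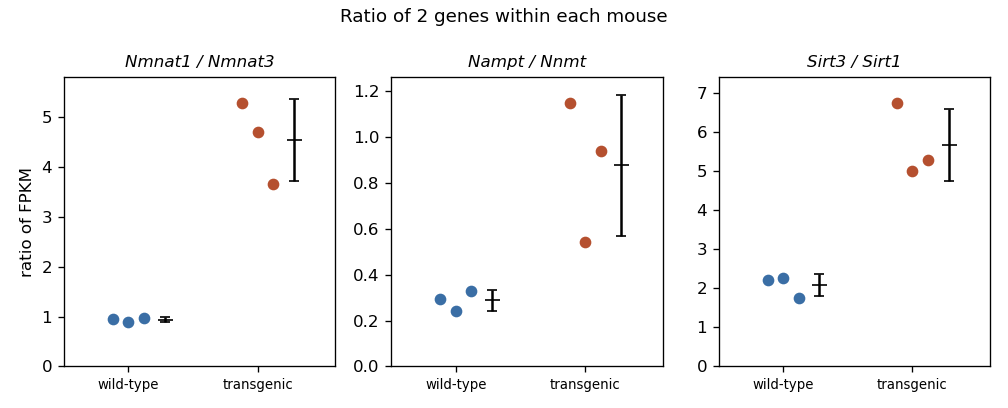
Ratio of the FPKM of *Nmnat1* to *Nmnat3*, of *Nampt* to *Nnmt* and of *Sirt3* to *Sirt1*, with 1 point per mouse for wild-type (blue) and transgenic (red) iWAT and the mean with its SD (n = 3). The transgenic mice lie above the wild-type mice for each ratio, from 3.67 to 5.28 against 0.883 to 0.980 for *Nmnat1* to *Nmnat3*.

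Neither of the other NAD consumers among the 10 genes, *Parp1* and *Cd38*, was called. *Parp1* (chr1:180568975-180601254) was at 23.8, 24.8 and 25.6 FPKM in transgenic and 26.6, 24.4 and 29.9 FPKM in wild-type mice. The ranges overlap, and the log2 difference was −0.11 with a 95% confidence interval of −0.33 to 0.10 (limma adjusted p = 0.402). Of the 14 PARP and tankyrase genes tested, *Parp6*, a mono-ADP-ribosyltransferase, was higher (33.2 ± 3.60 against 24.1 ± 0.793 FPKM, SD, n = 3; limma adjusted p = 0.0227) and 0 were lower (unadjusted limma p under 0.05: 1 higher and 1 lower). The share higher, 7.14%, is near the 11.6% of all loci tested and is no result about the list, and 7.03% of all loci were lower. The call of *Parp6* was lost in 7 of 16 alternative settings, among them those leaving out transgenic mouse 1 or 3 or any wild-type mouse, with limma adjusted p up to 0.0805.

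*Cd38* (chr5:43868338-43912374), an ectoenzyme best known from immune cells that hydrolyses NAD and its precursors, has 2 rows for 1 interval, and the row with the higher mean was used. It was at 5.67, 7.50 and 8.90 FPKM in transgenic and 7.06, 6.03 and 10.8 FPKM in wild-type mice. The genotypes overlap, and the 3 mice of each genotype differ from each other by more than the genotypes do. The log2 difference was −0.08 with a 95% confidence interval of −0.60 to 0.44 (limma adjusted p = 0.811). Its sign turned when transgenic mouse 1 (0.07) or wild-type mouse 3 (0.13) was left out. The second row was at 1.25, 1.41 and 1.94 FPKM in transgenic and 2.24, 2.00 and 5.42 FPKM in wild-type mice. There the genotypes do not overlap, with wild-type mouse 3 far above the rest, and the log2 difference of −0.66 ± 0.29 (SE) had a limma adjusted p = 0.153.

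*Bst1*, the paralogue of *Cd38*, was at 1.89, 3.07 and 2.79 FPKM in transgenic and 3.44, 4.29 and 5.43 FPKM in wild-type mice. These values do not overlap, but the log2 difference of −0.59 ± 0.18 (SE) did not pass (limma adjusted p = 0.0637). Wild-type mouse 3 was the highest for *Bst1* and for both rows of *Cd38*, and it also had the largest sums of macrophage markers (902 FPKM) and of B and plasma cell markers (238 FPKM, against 84.8 to 170 FPKM in the other 5 mice). Among the transgenic mice, *Cd38* was highest in mouse 3 in both rows, whereas *Bst1* and the sums of both marker lists were highest in mouse 2. Both cell types are known to carry Cd38, and their part in these values was not tested.

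**Figure D3:**
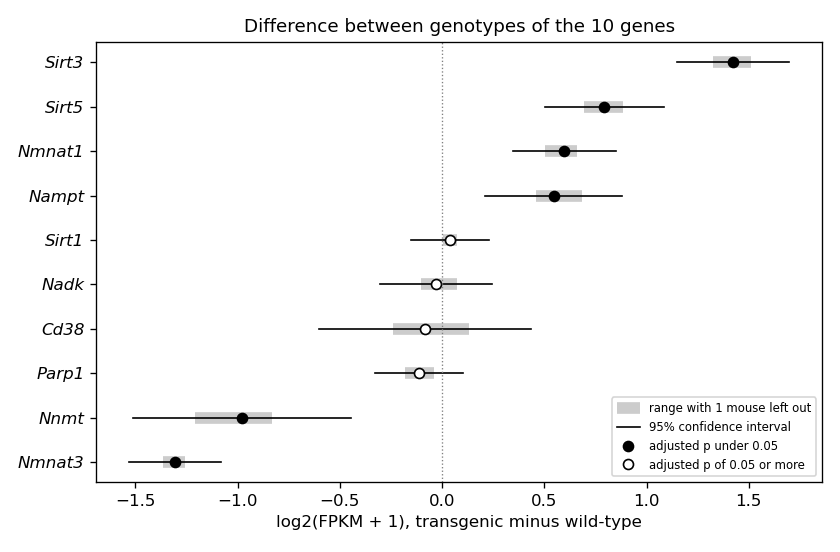
Difference between genotypes of the 10 genes on the log2(FPKM + 1) scale, transgenic minus wild-type, with the 95% confidence interval (line) and the range obtained when each mouse was left out (grey bar). Filled circles are genes with an adjusted p under 0.05, from *Sirt3* at 1.42 to *Nmnat3* at −1.31, and the intervals of the 4 open circles include 0.

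The order of levels changed with the genotype. In wild-type iWAT the mean ran from *Nnmt* (112 FPKM) and *Nadk* (99.0 FPKM), whose ranges overlap, through *Nampt* and *Parp1*, which also overlap, to *Sirt3* and *Sirt5*. The last 4 were *Nmnat3*, *Cd38*, *Nmnat1* and *Sirt1*, at 6.01 to 8.03 FPKM, and only *Nmnat1* and *Sirt1* among these neighbours were separated by their ranges. In transgenic iWAT *Nadk* (96.5 FPKM) stood first, and *Nnmt* overlapped with *Nampt*. *Sirt3* ranked above *Parp1* with no overlap, whereas in wild-type mice it ranked below. *Nmnat3*, ranked 7 of 10 in wild-type mice, was the least abundant gene in transgenic mice and lay below *Sirt1* with no overlap.

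The wider pathway was followed with a list of 57 NAD genes that includes the 10. Of these, 53 had a locus of their own, 2 shared a row with another gene (*Qprt* with *Spn*, *Sirt7* with *Mafg*), and *Nmrk1* and *Nadk2* were not analysed here. Among the 47 tested, 8 were higher, 4 were lower and 35 were not called, with a median log2 difference of 0.0025. Without the 10 genes, 4 of 37 were higher and 2 were lower. These shares of 10.8% and 5.41% are near the 11.6% and 7.03% of all loci tested, and they are no result about the list.

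Beside *Parp6*, the called genes outside the 10 are described here one by one. *Slc25a51*, the mitochondrial NAD carrier, listed as *Mcart1*, was at 68.1, 59.7 and 70.7 FPKM in transgenic and 29.7, 27.0 and 27.4 FPKM in wild-type mice. The genotypes were well separated, and the log2 difference was 1.21 ± 0.09 (SE; limma adjusted p = 0.000665). *Nudt13*, a mitochondrial hydrolase of NADH, rose by 1.13 ± 0.11 on the log2 scale (36.6 ± 3.82 against 16.2 ± 1.75 FPKM, SD, n = 3; limma adjusted p = 0.00123). *Nudt12*, its relative in peroxisomes, rose by 0.86 ± 0.16 (25.6 ± 3.43 against 13.8 ± 2.91 FPKM, SD, n = 3; limma adjusted p = 0.012), a call lost without the expression filter (limma adjusted p = 0.0644). In GENCODE, *Nudt12* shares 323 of its 4401 exonic bases with *Nudt12os* on the opposite strand. In the other direction, *Nnt*, the transhydrogenase of the inner mitochondrial membrane that makes NADPH from NADH, was at 2.86, 3.57 and 2.97 FPKM in transgenic and 6.03, 5.17 and 5.996 FPKM in wild-type mice. The genotypes do not overlap, and the log2 difference was −0.70 ± 0.10 (SE; limma adjusted p = 0.00585). GENCODE also holds a smaller *Nnt* entry on the same strand, whose 3339 exonic bases all lie in the larger. The part of the C57BL/6 and SJL backgrounds in the level of *Nnt* was not tested. *Haao*, an enzyme of NAD synthesis from tryptophan, fell by 0.61 on the log2 scale (6.85 ± 0.207 against 11.1 ± 1.92 FPKM, SD, n = 3; limma adjusted p = 0.0173). The call of *Haao* was lost without transgenic mouse 3 or wild-type mouse 2 or 3 (limma adjusted p up to 0.0585). It was also lost without the expression filter (limma adjusted p = 0.0697).

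**Figure D4:**
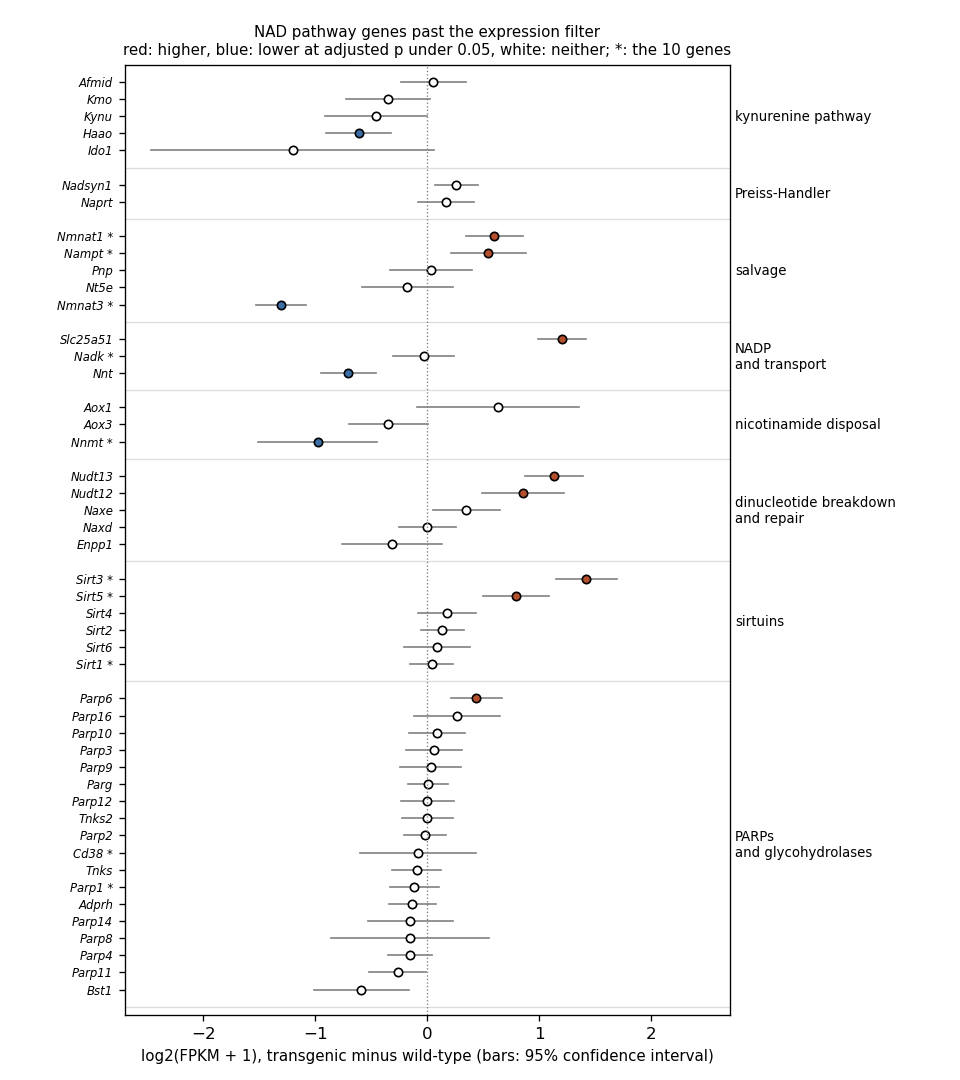
Difference between genotypes of the 47 NAD pathway genes tested, by step of the pathway, on the log2(FPKM + 1) scale, transgenic minus wild-type, with the 95% confidence interval. Red points were called higher and blue points lower at an adjusted p under 0.05, white points were not called and an asterisk marks the 10 genes, so that 8 red and 4 blue points are spread over 7 of the 8 steps.

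The loci whose pattern over the 6 mice was most like that of the called genes with the lowest adjusted p in each direction were also listed. For *Sirt3* they were *Mrpl50* (Pearson r = 0.999), a subunit of the mitochondrial ribosome, *Ndrg3* (r = 0.999) and *Ndufa10* (r = 0.999), a subunit of respiratory complex I. *Ndufa10* was at 542 ± 78.0 and 180 ± 15.3 FPKM (SD, n = 3). For *Nmnat3* they were *Rad50* (r = 0.997), which acts in DNA repair, *St6galnac5* (r = 0.996), a sialyltransferase, and *Kcns3* (r = 0.995), a potassium channel subunit. The 6 points come from 2 genotypes, so a locus with a large difference between genotypes tends to have a high r, and the values are given as a description.

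Around the 6 called genes, whose neighbours are named here and above after their values were seen, the 3 nearest loci on each side were compared in the same way. Of these 36 loci, 26 were tested, 5 were higher and 2 were lower, or 19.2% and 7.69% beside the 11.6% and 7.03% of all loci tested. Next to *Nampt*, *Prkar2b* was higher and *Pik3cg* lower, and none of the 3 tested neighbours of *Nmnat3* was called. The neighbours of *Sirt3* included *Cox8b*, a subunit of cytochrome c oxidase, which was higher by 2.61 on the log2 scale (limma adjusted p = 0.000914) and lies on the far side of *Psmd13*.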

How the data were processed

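RNA of iWAT from 6 mice was sequenced from Illumina TruSeq v2 libraries, a kit that does not mark strand. The submitters' processing notes name CASAVA 1.8.2, TopHat2 2.0.9, Bowtie2 2.1.0, Cufflinks 2.2.1 and the mm10 build, and the gene annotation is not given in the sources used here. The authors deposited FPKM per locus and mouse, and all of the per-sample columns were used. Starts in the table count from 0 (adding 1 gave the RefSeq start for 7042 of 17867 symbols, against 503 unshifted), so 1 was added. The interval printed after a gene is that of its row and can be wider than the gene. Rows of different genes can share an interval, as *Nampt* does with *Gdap10*, *Nmnat1* with *Lzic*, and *Sirt3* with *Ric8* and *Bet1l*. Reads per locus could not be recovered from the FPKM, so the depth is unknown and no counting interval is given.

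Loci with a mean over 1 FPKM in at least 1 genotype entered limma 3.58.1 (R 4.3.3) as log2(FPKM + 1), a scale that understates the change of low genes, and were compared two-sided with an eBayes trend and no covariates. The model was first run on simulated data. Single genes were also tested by an exact permutation test over 20 arrangements. Of a symbol on several rows (409 symbols), the row with the highest mean was used. The genes named are the 10 members, their enzyme families, other NAD pathway and methyl and polyamine genes with an adjusted p under 0.05, and for the member with the lowest adjusted p in each direction the 3 loci with the highest r. The members and the lists, markers included, were chosen with earlier results of these data known. Promoters are from RefSeq, and exon overlaps from GENCODE. Alternatives were a pseudocount of 0.1, other filters and scalings, no trend, sample quality weights, summed rows, a replicate block, each mouse left out and an adjusted p under 0.01.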

Additional observations from a re-analysis of the deposited data

How the results depend on the processing

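The direction and call of the 10 genes were recomputed under 16 alternatives each. Of these 160 values, 142 kept their sign and their side of the threshold, 13 kept the sign and lost the call, and 5 changed sign, all of them values that were not called (*Cd38* at 0.11 with sample quality weights, and the leave-outs of *Cd38*, from −0.24 to 0.13, and of *Nadk*, from −0.11 to 0.074). Calls of *Nmnat3*, *Sirt3* and *Sirt5* were kept in all 16, that of *Nmnat1* in 15, and those of *Nampt* and *Nnmt* in 10 each. Without the expression filter, under which more loci enter the adjustment, 748 loci were higher and 381 lower, NAD pathway genes numbered 5 higher and 2 lower, and 1 of the 10 genes was lower. At an adjusted p under 0.01, 569 loci were higher and 199 lower, 2 of the 10 genes higher and 1 lower, and 4 NAD pathway genes higher and 2 lower. With 1 mouse at a time removed, which leaves fewer samples, 780 to 1295 loci were higher and 329 to 906 lower, 3 to 4 of the 10 genes higher and 1 to 2 lower, and 6 to 8 NAD pathway genes higher and 2 to 4 lower. *Bst1* passed with sample quality weights (limma adjusted p = 0.0464) and with the block below.

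Same-numbered mice did not deviate together (r = 0.013, 0.034 and 0.070 over loci), so the numbers were not taken as pairs. A fit with the replicate number as a block called 1230 loci higher and 656 lower, 4 of the 10 genes higher and 2 lower, and 9 NAD pathway genes higher and 5 lower, and it changed no call of the 10 genes. The depth is unknown, which limits what can be said of loci at low FPKM such as *Nmnat2*. Quantile and median-ratio scaling shifted the median log2 difference of all loci to −0.03 and −0.0082, from −0.01.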

Other observations

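*Nmrk2*, the muscle kinase of nicotinamide riboside, listed under its older symbol *Itgb1bp3*, was below the filter, at 0, 0.260 and 0 FPKM in transgenic and 0, 0.0485 and 0.0229 FPKM in wild-type mice. Its highest value was in transgenic mouse 2, the library with the largest sum of skeletal muscle markers. *Ido1*, the first enzyme of NAD synthesis from tryptophan in immune cells, was at 5.18, 1.58 and 0.307 FPKM in transgenic and 3.35, 6.61 and 6.64 FPKM in wild-type mice, and was not called (limma adjusted p = 0.155). Of the genes that make NAD from nicotinic acid, *Naprt*, listed as *Naprt1*, was at 9.90 ± 0.826 and 8.69 ± 1.06 FPKM and *Nadsyn1* at 4.46 ± 0.200 and 3.56 ± 0.0725 FPKM (SD, n = 3), and neither passed (limma adjusted p = 0.282 and 0.0643). The repair enzymes of damaged NADH, *Naxe* (listed as *Apoa1bp*) and *Naxd* (listed as *Carkd*), were at 112 ± 13.9 against 87.8 ± 10.4 FPKM and at 52.6 ± 5.89 against 52.5 ± 4.57 FPKM (SD, n = 3) in transgenic and wild-type mice, and neither was called. These genes were named after their values were seen.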
